A study of Mus musculus with 2 samples.

Results

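The hnRNP and core spliceosome protein genes comprised 54 of the 21474 protein-coding genes measured in granulocyte-monocyte progenitors. They were chosen by name, as every protein-coding gene whose GENCODE M21 symbol begins with Hnrnp, Snrp, Sf3a, Sf3b or Lsm followed by a digit. In both libraries 53 of them reached 1 TPM (a read level corrected for transcript length and for library size), which 45.6% of all protein-coding genes did. The exception was Snrpn, with 0 counts in both libraries. Their median level was 76.9 TPM, against 0.550 TPM over all protein-coding genes. Among genes averaging 1 TPM or more, the medians were 77.3 TPM in the list and 13.3 TPM over protein-coding genes.

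Introns are removed by the spliceosome, which is built from small nuclear RNAs, each carried in a particle with proteins. A ring of Sm proteins surrounds the U1, U2, U4 and U5 RNAs, a related ring of LSm proteins holds the end of U6 RNA, and the SF3a and SF3b complexes clamp U2 to the branch point of the intron. The hnRNP proteins coat new transcripts and steer which splice sites are used, and several genes of both kinds are known in mammals to make transcripts with premature stop codons that are removed by nonsense-mediated decay.

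The assay was total RNA sequencing of granulocyte-monocyte progenitors (GMP), the marrow cells that precede neutrophils and monocytes. They came from adult male C57BL/6J mice aged 5 to 6 weeks, and neither a treatment nor a mutant allele is named. All data belong to 1 group with 2 libraries, replicate 1 and replicate 2, each from a pool of 100 cells with spike-in RNAs added. The labels number them as biological replicates. They carry separate sample identifiers under 1 donor identifier and are not said to come from different animals. Each SD (n = 2 throughout) thus shows how far the libraries lay apart, for technical or other reasons.

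The libraries held 40509954 expected counts (replicate 1) and 35675702 (replicate 2), and the detected genes of the list had between 124 and 26305 counts in a library. All 12 markers of granulocyte-monocyte progenitors reached 1 TPM in both libraries, led by the myeloperoxidase gene Mpo at 6467 ± 191 TPM. Of the 12 markers of other blood cells 0 did, and 6 had 0 counts in both libraries. Summed over those 12 markers, the level was 0.820 TPM in replicate 1 and 2.08 TPM in replicate 2.

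At 10 TPM the picture was similar, with 48 of the 54 genes above it in both libraries, against 26.1% of all protein-coding genes. The list held 32 of the 1000 highest protein-coding genes, and 43 of its genes stood in the top 10%. Together the 54 genes took 0.663% of all TPM in replicate 1 and 0.644% in replicate 2, which is 1.34% and 1.31% of protein-coding TPM. A level in a pooled library cannot separate the number of cells expressing a gene from the RNA per cell. From Snrpg at the top to Lsm11 at the bottom, the detected genes spanned 267-fold in mean TPM.

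**Figure D1:**
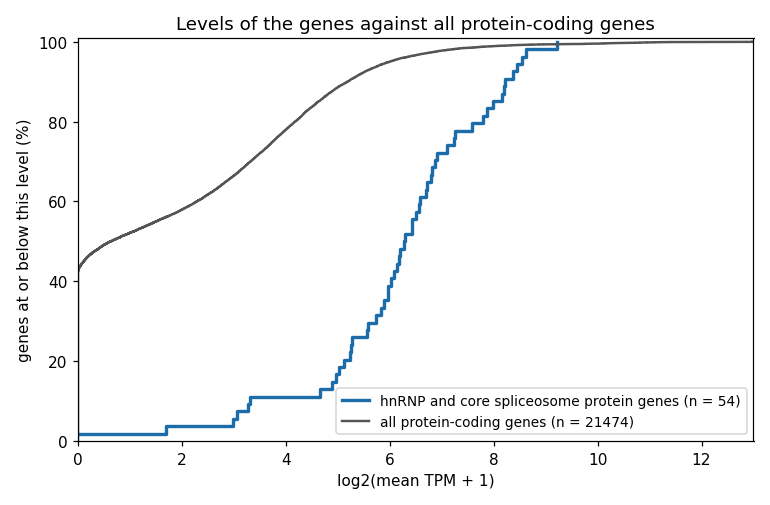
Cumulative share of genes (percent, vertical axis) at or below each level (log2(mean TPM + 1), horizontal axis) for the 54 hnRNP and core spliceosome protein genes and for all 21474 protein-coding genes. The curve of the 54 genes lies to the right, with medians of 76.9 TPM and 0.550 TPM before the log.

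Paired values of a gene with no library named are those of replicate 1 and replicate 2, in that order. The 20 hnRNP genes had a median of 155 TPM, and the 34 Snrp, Sf3 and Lsm genes one of 69.0 TPM. The hnRNP genes made up 54.2% of the list's TPM in replicate 1 and 54.4% in replicate 2.

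**Figure D2:**
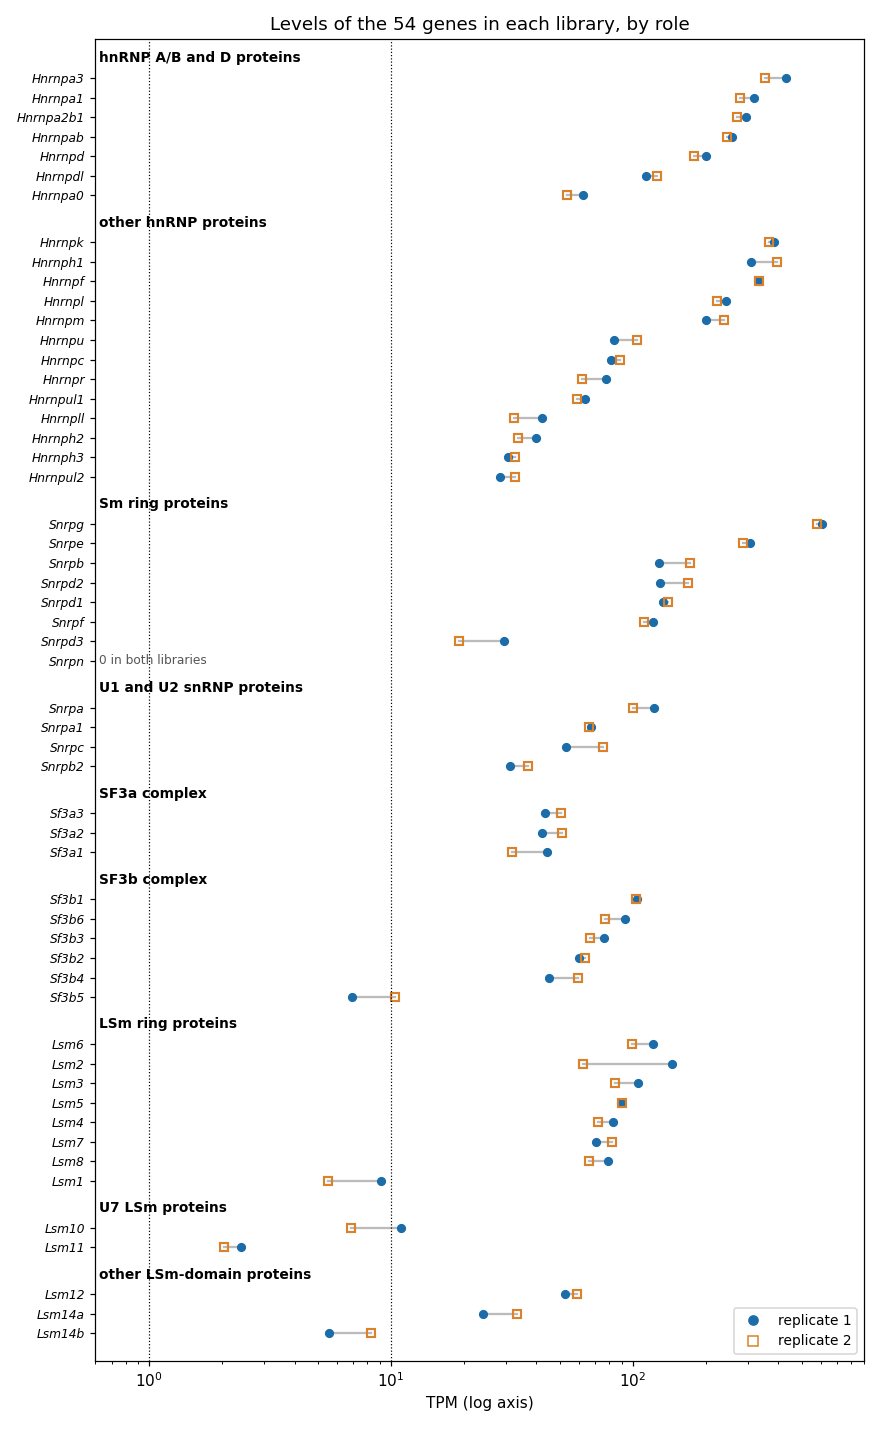
TPM (log axis) of each of the 54 genes in replicate 1 (filled circles) and replicate 2 (open squares), grouped by role, with dotted lines at 1 and 10 TPM. Most pairs of points lie close together, Lsm2 has the widest gap among genes above 10 TPM, and Snrpn is marked as 0.

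The A/B and D group of hnRNP proteins, which bind RNA through paired recognition motifs, had the highest median of any role, 252 TPM over 7 genes. In total the 7 genes reached 1677 TPM in replicate 1 and 1505 TPM in replicate 2, below the 1912 and 1999 TPM of the other 13 hnRNP genes. Hnrnpa3, a close relative of A1 and A2/B1, led it with 432 TPM in replicate 1 and 351 TPM in replicate 2. Hnrnpa1, which represses exon inclusion at many splice sites, had 317 and 277 TPM. Hnrnpa2b1, known also for sorting RNAs for transport, had 295 and 271 TPM. These 3 genes were all higher in replicate 1, at 1.23, 1.15 and 1.09 times their level in replicate 2. Hnrnpab, a CArG-box and RNA binding protein, had 257 TPM in replicate 1 and 246 TPM in replicate 2. Hnrnpd encodes AUF1, which binds AU-rich elements of unstable mRNAs, and stood at 200 and 180 TPM. Its relative Hnrnpdl had 114 and 126 TPM. The lowest was Hnrnpa0, an intronless gene whose product also binds AU-rich elements, at 62.2 TPM (replicate 1) and 53.7 TPM (replicate 2). It was the lowest of the 7 in both libraries, 6.76-fold below Hnrnpa3 in mean TPM.

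Among the other 13 hnRNP genes the poly(C) binding protein gene Hnrnpk had the highest mean, with 383 TPM (replicate 1) and 366 TPM (replicate 2). The F and H proteins bind runs of G, and their 4 genes were unequal. Hnrnph1 had 307 TPM in replicate 1 and 394 TPM in replicate 2, and Hnrnpf had 330 and 334 TPM. The range of Hnrnph1 overlapped that of Hnrnpk, and Hnrnph1 was the higher of this pair in replicate 2. Hnrnph2, on the X chromosome, had 40.0 and 33.4 TPM, and Hnrnph3 had 30.5 and 32.6 TPM. The values of Hnrnph1 and Hnrnpf lay well above those of Hnrnph2 and Hnrnph3 in both libraries.

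Hnrnpl, which binds CA repeats, had 243 TPM in replicate 1 and 224 TPM in replicate 2. Its paralogue Hnrnpll, known for switching exons of the CD45 gene Ptprc in activated T cells, had 42.2 and 32.2 TPM. Hnrnpm, a splicing regulator rich in methionine and arginine repeats, had 201 and 238 TPM. The paralogue pair Hnrnpl and Hnrnpll did not overlap in level.

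Hnrnpu, which encodes the scaffold attachment factor SAF-A, had 83.5 TPM in replicate 1 and 104 TPM in replicate 2. Hnrnpc, which packages uridine-rich stretches of nascent RNA, had 81.1 and 88.6 TPM. Hnrnpr, a relative of the RNA binding protein Syncrip, had 77.4 and 61.5 TPM. The ranges of Hnrnpu and Hnrnpc overlapped, and Hnrnpr lay below both. Hnrnpul1 and Hnrnpul2 encode U-like proteins that are recruited to DNA breaks in human cells. Hnrnpul1 had 63.6 and 58.8 TPM, and Hnrnpul2 had 28.3 and 32.6 TPM, the lowest mean among the hnRNP genes, with a range that overlapped that of Hnrnph3.

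Outside the symbol rule, 12 of 12 genes of hnRNP-type proteins under other names reached 1 TPM in both libraries, with a median of 122 TPM. Ptbp1, the polypyrimidine tract binding protein gene, averaged 246 ± 8.51 TPM, and its neural paralogue Ptbp2 13.2 ± 3.82 TPM.

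The Sm ring holds its proteins in equal number, and the levels of their mRNAs ranged widely. Snrpg, the gene of the G protein, had 605 TPM (replicate 1) and 579 TPM (replicate 2), the highest of all 54 genes. Snrpe, the gene of the E protein, had 304 and 286 TPM. Lower down, Snrpb, the gene of the B protein, had 129 TPM in replicate 1 and 173 TPM in replicate 2. Snrpd2, the gene of the D2 protein, had 130 and 169 TPM, and Snrpd1, the gene of the D1 protein that pairs with it, had 133 and 140 TPM. The ranges of Snrpb, Snrpd1 and Snrpd2 overlapped, so these data do not order them. Snrpf, the gene of the F protein, had 121 and 111 TPM. Snrpd3, whose product pairs with B, was far lower, at 29.3 TPM (replicate 1) and 19.2 TPM (replicate 2).

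Between Snrpg and Snrpd3 the mean TPM differed 24.4-fold. On CPM (counts scaled to the library total, with no length correction), the detected Sm genes spanned 4.25-fold, from Snrpd3 to Snrpb. Snrpg has a length of 350 bases in the deposited tables, against 1592 and 1724 bases for Snrpd3.

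Snrpn, the imprinted gene that encodes the neuronal counterpart of the B protein, had 0 counts in both libraries. A count of 0 allows up to 3 counts, or 0.0741 CPM in replicate 1 and 0.0841 in replicate 2. Such limits cover counting error only. The coding sequences of Snrpb and Snrpn were 80.5% identical over 696 aligned bases, and their longest identical run was 32 bases. The absence rests in part on telling these paralogues apart. Other genes that copy or overlap Snrpn were not sought, so reads placed on another row are not covered. For each paralogue the first 90 coding bases are shown 5′ to 3′, both on the minus strand of GRCm38, with the 13 differing bases in capitals. They are spliced from chr2:130177080-130179236 for Snrpb and chr7:59987477-59988604 for Snrpn.
Snrpb-201: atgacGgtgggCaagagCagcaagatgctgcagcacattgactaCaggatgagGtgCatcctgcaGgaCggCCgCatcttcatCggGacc
Snrpn-201: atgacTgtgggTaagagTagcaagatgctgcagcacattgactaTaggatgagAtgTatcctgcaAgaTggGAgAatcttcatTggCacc

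The 11 genes of the Sm assembly machinery, which loads the ring onto RNA with the SMN protein and the methyltransferase Prmt5, all reached 1 TPM in both libraries. Their median was 32.8 TPM. Smn1 averaged 51.1 ± 3.67 TPM and Prmt5 37.9 ± 6.93 TPM.

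The list has 4 genes of proteins particular to U1 or U2. Snrpa, the A protein of U1 that grips a stem loop of U1 RNA, had 123 TPM in replicate 1 and 100 TPM in replicate 2. Snrpc, the C protein of U1 that acts at the 5′ splice site, had 53.0 and 75.0 TPM. The A′ and B″ proteins of U2 bind U2 RNA as a pair. Snrpa1, the A′ gene, had 67.3 TPM in replicate 1 and 65.8 TPM in replicate 2, and Snrpb2, the B″ gene, had 31.1 and 36.9 TPM. The partner genes did not overlap in level.

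Snrpa1 had the largest share of TPM on transcripts typed nonsense_mediated_decay in the list, all of it on Snrpa1-201. This transcript took 43.8% of the gene's TPM in replicate 1 and 29.0% in replicate 2. On expected counts its share was 37.8% and 21.1%. Snrpa1-201 skips an exon of 80 bases at chr7:66070119-66070198 (GRCm38, plus strand), which shifts the reading frame to a stop codon 164 bases before the last exon junction. The reading frame around the skip is shown for Snrpa1-201, ending in its stop codon in capitals, and for the coding transcript Snrpa1-206 over the same length, and they share the first 39 bases. The letters are spliced from chr7:66069488-66070595 and chr7:66069488-66070124.
Snrpa1-201: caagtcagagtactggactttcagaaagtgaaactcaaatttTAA
Snrpa1-206: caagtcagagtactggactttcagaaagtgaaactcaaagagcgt

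In Snrpa, the transcript Snrpa-205, typed retained_intron, took 54.6% of TPM in replicate 1 and 34.7% in replicate 2. On expected counts it took 28.4% and 14.7%. It is 509 bases long and runs unspliced through 60 bases before an acceptor that Snrpa-201 uses. The stretch around that acceptor is shown from chr7:27188925-27188984 (minus strand), with the last bases of the intron in capitals.
Snrpa-205: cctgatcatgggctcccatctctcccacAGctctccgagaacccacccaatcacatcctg

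The 3 SF3a genes spanned 1.24-fold in mean TPM and, with no length correction, 2.07-fold in CPM. Sf3a1, whose product contacts U1 and U2 particles, had 44.1 TPM in replicate 1 and 31.7 TPM in replicate 2. Sf3a2 had 42.0 and 50.8 TPM, and Sf3a3, which with Sf3a2 joins the complex to U2, had 43.3 and 50.3 TPM. The ranges of all 3 genes overlapped.

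The SF3b genes spanned 12.0-fold in mean TPM and 11.8-fold in CPM. Sf3b1, the large repeat protein that closes around the branch point and is often mutated in human myelodysplastic syndromes, had 104 TPM in replicate 1 and 103 TPM in replicate 2. Sf3b6, which sits beside the branch adenosine, had 93.2 and 77.1 TPM. Sf3b3, a scaffold subunit, had 76.2 and 66.8 TPM. Sf3b2, which binds Sf3b4, had 60.1 and 63.7 TPM, and Sf3b4, with RNA recognition motifs, had 45.2 and 59.3 TPM. These 5 genes lay between 45.2 and 104 TPM in every library. Sf3b5, a small subunit, was lower, at 6.92 TPM (replicate 1) and 10.4 TPM (replicate 2). It had 748 and 1002 counts on a deposited transcript of 3841 bases, and it was also the lowest SF3b gene in CPM.

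Sf3b1 gave 25.3% of its TPM to Sf3b1-208, a transcript of 600 bases typed nonsense_mediated_decay, with 23.9% in replicate 1 and 26.7% in replicate 2. On expected counts the share was 2.95% and 3.18%. Sf3b1-208 holds an extra exon of 56 bases at chr1:55014869-55014924 (GRCm38, minus strand) that brings in a stop codon 116 bases before the last junction of the transcript. The end of its reading frame, with the stop codon in capitals, is shown beside the same length of the coding transcript Sf3b1-201, with which it shares the first 41 bases. They are spliced from chr1:55014905-55016415 and chr1:55014543-55016415.
Sf3b1-208: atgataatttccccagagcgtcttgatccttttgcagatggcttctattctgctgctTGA
Sf3b1-201: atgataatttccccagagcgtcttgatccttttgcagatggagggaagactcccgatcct

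Of 21 genes for other spliceosome proteins, 21 reached 1 TPM in both libraries, with a median of 33.2 TPM. The list holds proteins of the U1, U2, U5 and tri-snRNP particles, the branch point and U2 auxiliary factors, and Snrnp25, Snrnp35 and Snrnp48, whose products belong to the minor spliceosome. Without these 3 genes the median was 38.2 TPM over 18. Phf5a, the subunit of SF3b outside the symbol rule, averaged 85.6 ± 3.37 TPM, and Prpf8, the central U5 protein, 78.7 ± 6.43 TPM.

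The 8 LSm ring genes supply a nuclear ring that contains LSm8 and binds U6, and a cytoplasmic ring that contains LSm1 and acts in mRNA decay, with their other subunits in common. Lsm8 had 79.1 TPM in replicate 1 and 66.2 TPM in replicate 2. Lsm1 had 9.10 and 5.51 TPM, and its values lay below those of every other ring gene in both libraries. The 8 genes spanned 15.1-fold in mean TPM and 4.49-fold in CPM, from Lsm1 to Lsm6 on both scales. On CPM Lsm1 had 14.5 and 8.91, close to the 15.8 of Lsm7 in replicate 1, and Lsm8 had 44.3 and 36.9. The deposited length of Lsm1 was 2360 bases, against 933 and 916 for Lsm8. Of the shared subunits, Lsm6 had 121 TPM in replicate 1 and 99.7 TPM in replicate 2. Lsm3 had 105 and 84.6 TPM. Lsm5 had 89.2 and 90.7 TPM. Apart from Lsm2, the shared subunits lay between 70.8 and 121 TPM in every library. Lsm4 had 83.1 and 71.6 TPM, and Lsm7 had 70.8 and 82.1 TPM. The 6 partners of the cytoplasmic ring, which include the decapping and decay factors Patl1, Ddx6 and Xrn1, all reached 1 TPM in both libraries, with a median of 15.2 TPM.

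Lsm2 had 146 TPM in replicate 1 and 62.2 TPM in replicate 2, a log2 ratio of -1.22 for replicate 2 over replicate 1 on TPM + 1. On counts the gap was smaller, with 1598 and 998 expected counts, a CPM 1.41 times as high in replicate 1. Its average transcript length in the deposited tables was 533 bases in replicate 1 and 770 in replicate 2. The tables placed its reads on different transcripts in the 2 libraries. Lsm2-209, a processed_transcript of 368 bases, held 471 counts in replicate 1 and 25.4 in replicate 2. The coding transcript Lsm2-202 held 195 and 518 counts. Lsm2-206, a processed_transcript of 687 bases, held 861 and 265 counts. Transcripts typed protein_coding thus took 6.70% of Lsm2 TPM in replicate 1 and 57.2% in replicate 2. The 3 transcripts differ at their first junction, and 30 bases across it are shown from the plus strand of GRCm38, with the second exon in capitals. They are joined across chr17:34982071-34982634 (Lsm2-202), chr17:34982139-34982634 (Lsm2-209) and chr17:34982220-34982655 (Lsm2-206).
Lsm2-202: ggcgccagcaccatgCTCTTCTACTCCTTT
Lsm2-209: accgtgcgggcgtggCTCTTCTACTCCTTT
Lsm2-206: tgcccacaccccagtTCTCTTGTGGGCAAG

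Lsm4, another shared subunit, changed direction between scales. It was 1.16 times as high in replicate 1 as in replicate 2 on TPM, while its 1121 counts in replicate 1 and 1440 in replicate 2 gave a CPM ratio of 0.686. The retained_intron transcript Lsm4-203, of 375 bases, held 192 counts in replicate 1 and 0 in replicate 2.

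The U7 particle, which cuts histone mRNAs, replaces Sm proteins D1 and D2 with LSm10 and LSm11. Lsm10 had 11.0 TPM in replicate 1 and 6.86 TPM in replicate 2, on 242 and 124 counts. Lsm11 had 2.40 and 2.04 TPM, the lowest TPM above 0 in the list, on 439 and 337 counts and a deposited length of 6383 and 6453 bases. With no length correction Lsm10 was lower, at a mean of 4.72 CPM, against 10.1 CPM for Lsm11. Both lay far below Snrpd1 and Snrpd2, whose lowest value was 130 TPM. On CPM they also lay below, with 65.1 and 69.9 for Snrpd1 and 42.6 and 56.8 for Snrpd2, a narrower gap for Lsm11. Of the 6 U7 and histone end-processing partners, 5 reached 1 TPM in both libraries. The exception was Zfp473, a U7-associated zinc finger gene, at 2.90 TPM (replicate 1) and 0.780 TPM (replicate 2), and the stem-loop binding protein gene Slbp averaged 78.2 ± 6.42 TPM.

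The 3 remaining LSm-domain genes were unequal. Lsm12, whose product is found with ataxin proteins, had 52.3 TPM in replicate 1 and 59.1 TPM in replicate 2. Lsm14a, of the cytoplasmic granules that store and decay mRNA, had 24.1 and 33.2 TPM. Its paralogue Lsm14b, known for mRNA storage in mouse oocytes, had 5.54 and 8.28 TPM.

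Agreement between libraries was close to that of other genes. Of the 48 genes averaging 10 TPM or more, 47 lay within 2-fold between the libraries, and 96.9% of the 6095 protein-coding genes of that level did. Lsm2 was the exception. On CPM it also lay within 2-fold. The median log2 ratio of replicate 2 over replicate 1 was -0.06 for the 48 genes and 0.03 for the 6095. The median coefficient of variation was 10.5% and 11.7% in the same order. By TPM 27 of the 48 genes were higher in replicate 1 (56.2%), against 45.6% of all protein-coding genes of that level. With edgeR's TMM factors or DESeq2's size factors on the counts, 28 were higher in replicate 1 (58.3%), against 52.1% and 52.2%. By CPM, 21 were (43.8%), against 40.8%. The side with more of the 48 genes thus turned with CPM, as did the sign of their median, and on each of these 4 scales their share stood above that of all genes.

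**Figure D3:**
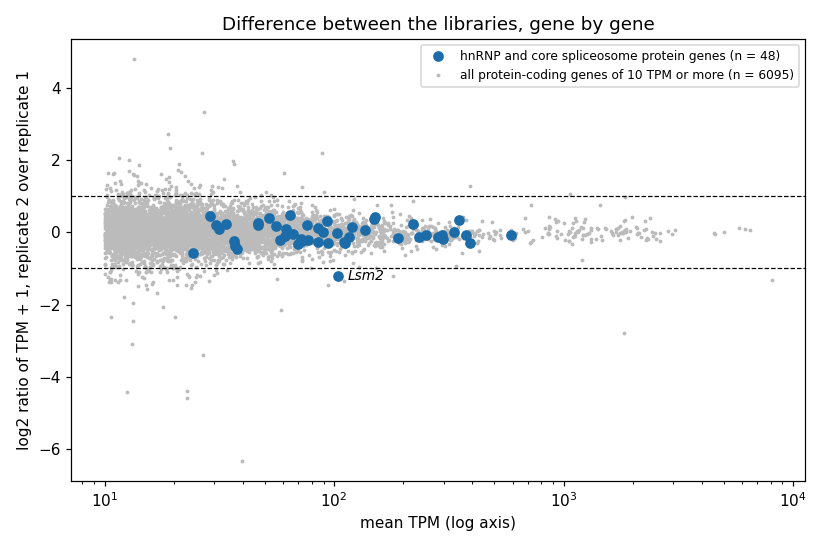
Log2 ratio of TPM + 1, replicate 2 over replicate 1 (vertical axis), against mean TPM (log axis) for the 48 genes averaging 10 TPM or more (large points) and all 6095 protein-coding genes of that level (small points). Dashed lines mark 2-fold, and only Lsm2 among the 48 lies outside them.

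Transcript types were read from the share of each gene's TPM on transcripts that GENCODE M21 types as protein_coding, nonsense_mediated_decay, retained_intron or processed_transcript. Of the 48 genes averaging 10 TPM or more, 7 had under 50% of TPM on protein_coding transcripts (14.6%), against 13.4% of the 6095 protein-coding genes. They were Lsm2, Hnrnph1, Snrpd3, Hnrnph3, Sf3b1, Hnrnpk and Snrpa1. The count was 8 in replicate 1 alone (16.7%), with Snrpa, against 14.3% of the 6095. It was 3 in replicate 2 alone (6.25%), namely Hnrnph1, Snrpd3 and Sf3b1, against 14.0%, so the share stood near that of the other genes in replicate 1 and below it in replicate 2. By expected counts rather than TPM, averaged over the libraries, 2 of the 48 genes had under 50% of their reads on protein_coding transcripts (4.17%). Of the 6095 genes, 6.89% did. The 2 were Lsm2, with 12.2% in replicate 1 and 64.4% in replicate 2, and Hnrnph1, with 52.2% and 45.7%. Neither was thus under 50% in both libraries.

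By type, the list again lay near the other genes. Transcripts typed nonsense_mediated_decay held 10% of TPM or more in 3 of the 48 genes (6.25%), against 8.32% of the 6095. The 3 were Snrpa1, Sf3b1 and Hnrnpd. Retained_intron transcripts did so in 15 genes (31.2%), against 29.9%. Processed_transcript types did so in 3 genes (6.25%), Lsm2, Hnrnph1 and Hnrnpdl, against 14.4%. The median share on nonsense_mediated_decay and retained_intron transcripts together was 1.97% for the 48 genes and 0.235% for the 6095. Among genes with at least 1 such transcript in the tables, the medians were 17.9% over 27 genes and 16.6% over 3294. The annotation gives such a transcript to 56.2% of the 48 genes and 54.0% of the 6095. The share of genes past each of these thresholds, averaged over the libraries, therefore stood close to or below that of the other genes.

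**Figure D4:**
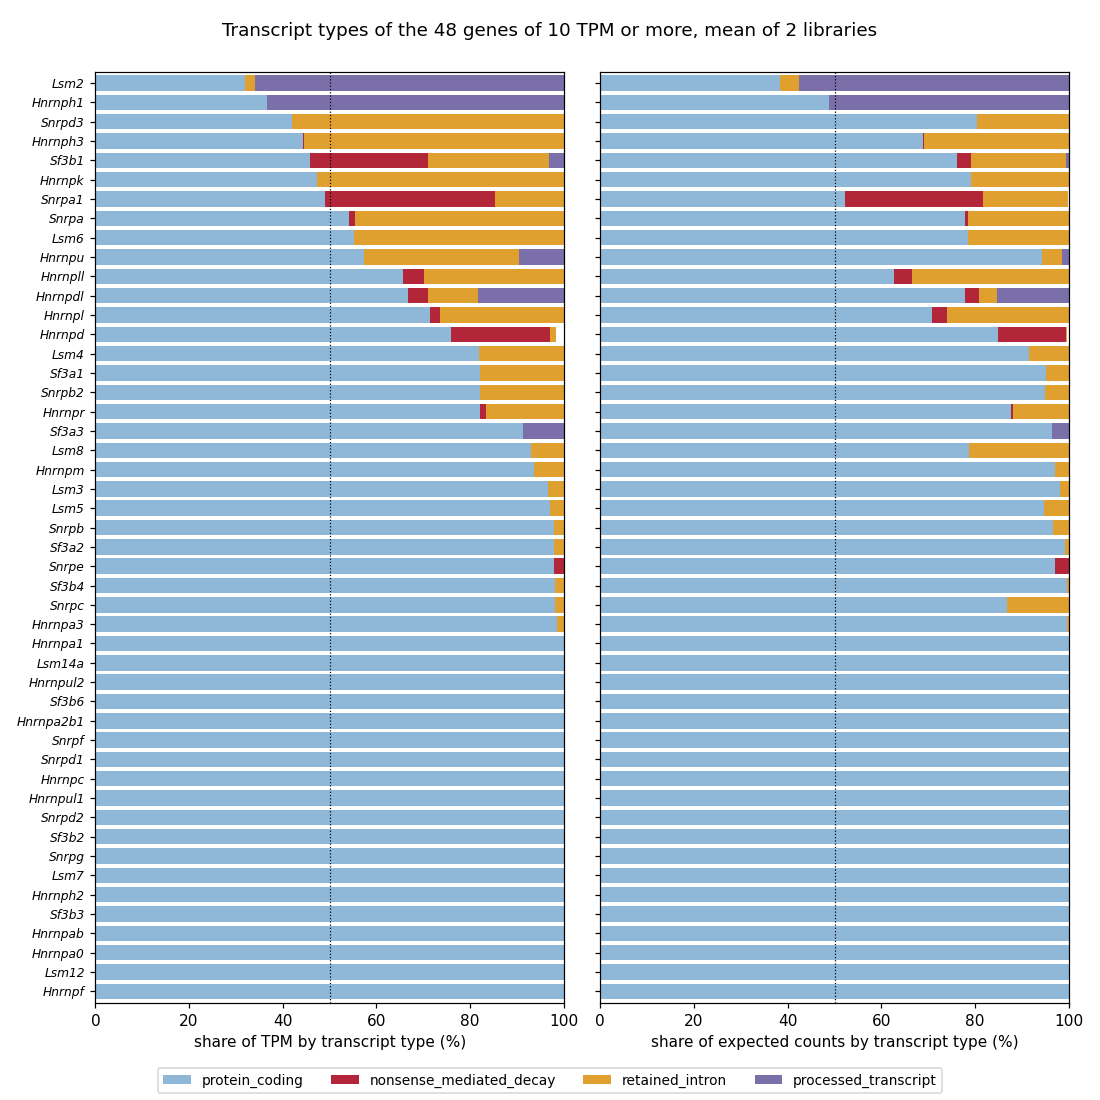
Share of TPM (left) and of expected counts (right) on 4 transcript types for each of the 48 genes averaging 10 TPM or more, in percent and averaged over 2 libraries, with the dotted line at 50%. The 7 genes at the top have under 50% of TPM on protein_coding transcripts. On counts the means of Lsm2 and Hnrnph1 remain under 50%, though neither gene does so in both libraries.

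Hnrnpd-208, typed nonsense_mediated_decay, took 13.4% of Hnrnpd TPM in replicate 1 and 12.9% in replicate 2, and 10.9% and 9.89% of expected counts. It holds an exon of 107 bases at chr5:99962098-99962204 (GRCm38, minus strand) after the stop codon, which leaves the stop 137 bases before the last junction. Its model in the annotation is incomplete at an end.

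Hnrnph1-212, a processed_transcript of 816 bases with 1 junction outside the coding transcripts, took 37.8% of Hnrnph1 TPM in replicate 1 and 34.1% in replicate 2. Its share of expected counts was 15.3% and 16.0%. Hnrnph1-205, of 4577 bases, took 8.24% and 9.99% of TPM but 22.5% and 31.4% of expected counts. Hnrnph3-205, a retained_intron transcript of 651 bases, took 54.4% of Hnrnph3 TPM in replicate 1 and 30.3% in replicate 2. On expected counts it took 27.7% and 16.2%. Most coding reads of Hnrnph3 were placed on Hnrnph3-202 in replicate 1 (539 counts, and 0 in replicate 2). In replicate 2 most were on Hnrnph3-201 (444 counts, and 0 in replicate 1). Hnrnph3-202 and Hnrnph3-201 are 2168 and 2213 bases long. A shorter coding transcript, Hnrnph3-203 of 682 bases, held 37.9 counts in replicate 1 and 114 in replicate 2. It took 25.4% of Hnrnph3 TPM in replicate 2, beside 25.3% for Hnrnph3-201.

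Hnrnpu-202, a retained_intron transcript of 673 bases, took 26.2% of Hnrnpu TPM in replicate 1 and 23.9% in replicate 2. Its share of expected counts was 2.92% and 2.73%, beside the coding transcript of 7640 bases.

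The other leading retained_intron transcripts run past a splice site that the coding transcript uses. Snrpd3-202 took 60.8% of Snrpd3 TPM in replicate 1 and 55.2% in replicate 2, and extends 406 bases past a donor. Hnrnpk-215 took 21.6% and 24.0% of Hnrnpk TPM and begins 33 bases before an acceptor. Lsm6-202 took 43.0% and 46.6% of Lsm6 TPM and begins 150 bases before an acceptor. Each is shown over 60 bases that cross the site, with the end of the unspliced intron in capitals, from chr10:75519431-75519490 (plus strand), chr13:58395658-58395717 (minus strand) and chr8:78810031-78810090 (minus strand).
Snrpd3-202: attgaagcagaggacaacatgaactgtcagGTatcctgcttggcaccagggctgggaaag
Hnrnpk-215: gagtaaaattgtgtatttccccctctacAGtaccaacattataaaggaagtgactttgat
Lsm6-202: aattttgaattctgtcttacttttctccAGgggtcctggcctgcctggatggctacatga

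The genes with the largest differences in share between libraries were Lsm2, Lsm4, Sf3a1, Snrpb2 and Snrpa. Protein_coding transcripts took 72.0% of Sf3a1 TPM in replicate 1 and 92.0% in replicate 2. For Snrpb2 the shares were 91.7% and 72.5%. The sign of the difference was thus not the same across these genes.

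Over the 48 genes, 21 transcripts of other types, from 16 genes, held 10% of TPM or more, with a median length of 687 bases. Of the 21, 15 had fewer than 200 bases that no coding transcript covers, and 0 lacked both a base and a junction of their own. In 19 of the 21 the share of expected counts was below the share of TPM. The exceptions were Lsm2-206 and Hnrnpll-207, a retained_intron transcript of 4651 bases with 15.1% of Hnrnpll TPM and 22.4% of its counts. In 10 of them it was below 50% of the share of TPM. TPM corrects for length, so a transcript shorter than the others of its gene tends to take a larger share of TPM than of reads. Among transcripts of the 48 genes at 1 TPM or more in either library, the median length was 2000 bases for 103 protein_coding transcripts. It was 778 bases for 56 retained_intron transcripts. Over all protein-coding genes of 10 TPM or more the medians were similar, at 2172 and 826 bases.

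**Figure D5:**
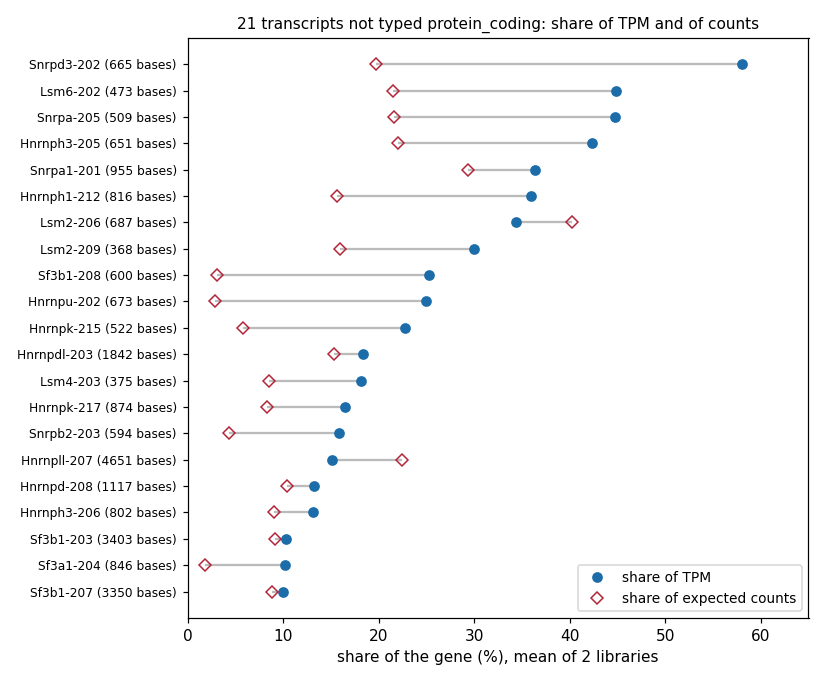
Share of the gene's TPM (filled circles) and of its expected counts (open diamonds), in percent and averaged over 2 libraries, for the 21 transcripts of other types with 10% of TPM or more among the 48 genes, with the length of each. The count share lies below the TPM share in 19 of the 21, and Sf3b1-208 stands at 25.3% of TPM and 3.07% of counts.

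The leading transcript, that with the largest share of TPM, differed between libraries in 5 of the 38 genes of 10 TPM or more with at least 2 transcripts (13.2%). The background was 26.9% of 4759 protein-coding genes, at lower levels, since genes of 10 TPM or more had a median of 87.6 TPM in the list and 25.1 TPM overall. The part of level in that gap was not tested. The 5 genes were Hnrnpl, Hnrnpr, Lsm2, Lsm6 and Snrpa1, and in Hnrnpl and Hnrnpr both leading transcripts were protein_coding.

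Reads that match several rows of the tables are divided among them. Counts were whole in both libraries for 33 of the 53 detected genes and fractional for 20. A copy of at least 95% identity over at least 200 bases was found for 18 genes, 16 of them among the 20. Copies held over 10% of the gene's own counts in either library for 4 genes. The Snrpg copy Gm8186 had 1084 counts in replicate 1 and 652 in replicate 2, beside 3405 and 2950 for Snrpg. The Snrpf copy Gm13092 had 493 and 552 counts, beside 2487 and 2049. The Lsm7 copy Gm10146 had 263 and 91.3 counts, beside 640 and 670. Hnrnpa3 has 26 copies, of which Gm5641 had 2649 and 922 counts, beside 24413 and 19591. The levels of these 4 genes are uncertain for that reason. A further limit is that 15 of the 53 detected genes overlap another gene on the opposite strand. The use of strand in counting is not given in the sources used here.

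Promoter windows of 300 bases around annotated starts (RefSeq, GRCm38.p6) matched 45 of the 54 genes by symbol. The 4 short motifs were searched on both strands, none of which contains another. The 45 genes had 61 windows. A gene counted as having a motif if any of its windows held it, and took the highest CpG ratio among its windows. The ETS-type motif CCGGAAG lay in 28.9% of the 45 genes, against 25.4% of 4920 protein-coding genes of 10 TPM or more and 13.5% of all 16317 with a window. The SP1-type motif GGGCGG lay in 71.1%, against 71.0% and 51.4%. The NF-Y-type motif CCAAT lay in 53.3%, against 43.2% and 42.0%, and the TATA motif TATAAA in 11.1%, against 7.62% and 14.1%. The median ratio of observed to expected CpG was 0.945 in the 45 genes, 0.837 in genes of 10 TPM or more and 0.636 in all. Matches describe letters in these windows and not binding.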

How the data were processed

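Total RNA-seq was analysed from 1 group of 2 libraries, named by the replicate numbers in the labels. Expected counts (estimates, with fractions where reads are shared), TPM and FPKM were used as the authors deposited them. Percent values, as deposited by transcript, are each transcript's share of its gene's TPM. The text files the authors deposited name mm10 and annotation M4, and which tools aligned and counted is not given in the sources used here. Symbols, types and coordinates came from GENCODE M21 (GRCm38) by Ensembl identifier without version.

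The members, lists and named genes were chosen with earlier results of these data known. Named genes are all members by role, those under 1 TPM or over 2-fold apart, the 10 with the largest share of TPM off protein_coding transcripts and the 5 with the largest difference in that share. Hnrnpd, Hnrnpdl and Hnrnpll by transcript type, the genes with differing leading transcripts and the examples among context genes were chosen with their values in view. With 1 group no test was made, and counts and medians by level, agreement between libraries, transcript type and motif stand beside the same over protein-coding genes. Counts by copies, overlaps and whole counts, and those among the 21 transcripts of other types, have no such background. Shares are means over libraries. Ratios are on log2(TPM + 1), a scale that understates those of low genes. CPM are counts scaled to the library total. A count was whole if within 0.005 of a whole number. Sequences were read from the GENCODE M21 transcripts, and copies were found with BLAST 2.17.0. Of the steps, the ratios between libraries and the shares by transcript type were tested on simulated data. Python 3.11.15, numpy 2.4.6, pandas 2.3.3 and matplotlib 3.10.9 were used, with scaling factors from edgeR 4.0.16 and DESeq2 1.42.0 on expected counts rounded to whole numbers as alternatives. Other alternatives changed the pseudocount, unit, filter and replicate.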

Additional observations from a re-analysis of the deposited data

How the results depend on the processing

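Of 36 recomputed values, 30 stayed within a set limit. For counts the limit was 1.5 times, and for the median level and median share the SD between libraries. For the median log2 ratio it was the SD of that ratio across the 48 genes, a wider yardstick that does not register a change of sign. The median level was 76.9 TPM, 56.1 in FPKM and 156 with TPM rescaled to protein-coding genes, beside 0.400 and 1.11 for all protein-coding genes. The count of genes with under 50% of TPM on protein_coding transcripts was 7, and 2 by expected counts. Leaving out each replicate in turn gave 53 and 53 genes at 1 TPM, medians of 73.3 to 80.1 TPM, 3 to 8 genes under 50%, and a median nonsense_mediated_decay and retained_intron share of 0.670% to 2.01%. That share was 17.9% over genes with such a transcript, an alternative chosen after seeing the data, as were CPM and posterior mean shares (2.16%). The median log2 ratio ran from -0.07 to 0.05, its sign changing with CPM. Lsm2 was over 2-fold apart on TPM, and its log2 ratio was -0.56 with edgeR's TMM factors, -0.58 with DESeq2's size factors and -0.48 with CPM, where 0 of the 48 genes was over 2-fold. Counts carry no length correction. Ratios between libraries have no value with either library left out. No paired analysis was possible because there is 1 group. With 2 libraries no difference was tested, and splits of reads among transcripts of few bases of their own are the least certain values.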
